A study of Saccharomyces cerevisiae with 3 samples.

Results

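The 10 genes described here encode the cytosolic Hsp70 chaperones of budding yeast, their Hsp110 relatives and 1 further exchange factor: SSA1, SSA2, SSA3, SSA4, SSB1, SSB2, SSZ1, SSE1, SSE2 and FES1. They were chosen by gene name from the 6256 genes on the arrays. The array design listed 9 of them under these names, and FES1 was found through its systematic name, YBR101C. All 10 had 2 spots per array, and all 120 spot channels were well above background and unsaturated. One SSA2 spot carried an outlier flag on the wild-type array, so the SSA2 ratio there rests on 1 spot and has no SD.

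Hsp70 chaperones bind short hydrophobic stretches of unfolded proteins and release them in a cycle of ATP hydrolysis that J-domain proteins start and nucleotide exchange factors complete. In the yeast cytosol the Ssa proteins do general folding work and also hold the heat shock factor Hsf1 in check, while the Ssb proteins sit at the ribosome and receive chains as they are made. Ssz1 is an atypical Hsp70 that forms the ribosome-associated complex with the J-domain protein Zuo1. Sse1 and Sse2 are Hsp110 proteins, large Hsp70 relatives that act as exchange factors, and Fes1 is an exchange factor of the armadillo-repeat type.

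Messenger RNA was compared between a wild-type strain and an HHO1 delta strain of Saccharomyces cerevisiae, which lacks the linker histone gene HHO1, with 1 array for each of 3 samples: unheated deletion cells (25 °C), heated deletion cells (37 °C) and heated wild-type cells (37 °C). Cells had grown in rich YPAD medium to an optical density of 0.5, and heating was taken to have lasted 15 min. The treatment protocol gives this shift to 37 °C, whereas the sample labels and growth protocol speak of growth at 37 °C. In bulk RNA, fewer cells of a kind and less RNA per cell cannot be told apart. Wild-type RNA from 25 °C shared each array as the reference and is the only control. The labels used here name neither the strain background nor the deletion construct, and do not say whether 1 extract served as reference throughout. Both deletion samples carried Cy3 on 1 slide and the wild type at 37 °C carried Cy5 on another, so dye, slide and strain cannot be told apart at 37 °C. With 1 array per group nothing below has a replicate check or a test, and the SD given is between the spots of a gene on the array. HHO1 itself was at a log2 ratio of -4.34 in the deletion strain at 25 °C and -4.26 at 37 °C, and at -0.34 in the heated wild type.

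Heat divided the family in the wild type. The general cytosolic Hsp70 genes, both Hsp110 genes and FES1 rose, 7 genes in all, while the 3 Hsp70 genes of the ribosome fell. The size rule behind these words asks for a mean log2 ratio of 1 or more in size, with no spot under 0.58 in the same direction. More than 1 spot was in use for 3756 genes in this comparison, and for the others the rule rests on 1 spot. Among all 5974 genes measured in this comparison 11.6% rose and 16.4% fell, and the median of the 10 genes, 2.64, stood beside 0.00 for all genes. In the order of the ratios SSA4 led at 7.33, followed by SSA3 at 3.94, SSE2 at 3.84, SSA1 at 3.55, FES1 at 3.12, SSE1 at 2.16, SSA2 at 1.74, SSZ1 at -1.10, SSB2 at -3.88 and SSB1 at -3.96. Spots of neighbours in this order did not overlap, although the gaps between SSA3 and SSE2 (0.10) and between SSB2 and SSB1 (0.08) were smaller than the SD of 0.22 by which the reference itself differed between both mutant arrays over 5872 genes.

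**Figure D1:**
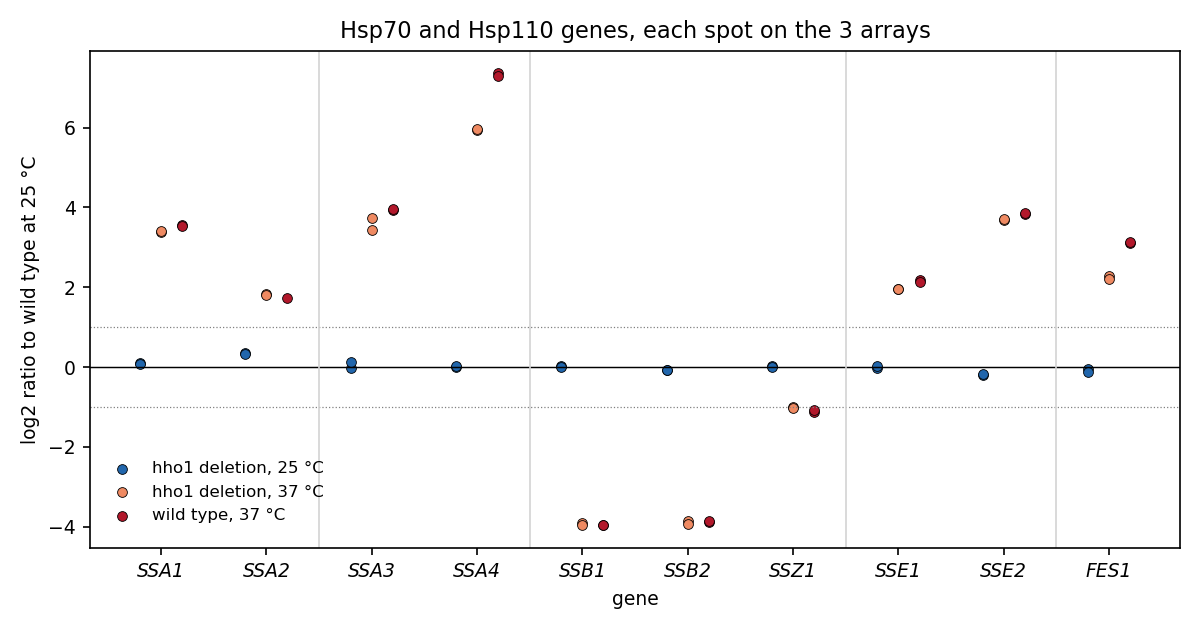
Each point is the log2 ratio of 1 spot to the wild type at 25 °C, for the 10 genes on the horizontal axis and the 3 arrays by colour; dotted lines mark 1 and -1. In both heated samples SSA4 stands highest and SSB1 and SSB2 lie near -4, while the deletion strain at 25 °C stays near 0 for every gene.

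SSA4 and SSA3 are the Ssa genes known as heat-induced, little used in unstressed cells. The SSA4 signal above spot background was 485 in the deletion strain at 25 °C, 134962 in the deletion strain at 37 °C and 277204 in the wild type at 37 °C. In the reference at 25 °C it was 1084 and 6902 in Cy5 on the arrays of unheated and heated deletion cells, and 864 in Cy3 on the wild-type array. Both heated samples were thus far above every unheated channel, and 1 of the 3 reference channels stood well above the other two. These signals, and those of the other genes below, are given before normalisation. Cy5 was the brighter dye, so the quotients of signals differ from the normalised folds. Spots of negative controls had a median signal of 37.2 to 37.9 in Cy5 and 157 to 162 in Cy3. In the wild type the SSA4 ratio of 7.33 ± 0.05 (SD, 2 spots) is a 160.6-fold rise and ranked 2 of 5974 genes from the top. SSA3 went from 494 in the reference to 15560 in the heated wild type on the same array, a log2 ratio of 3.94 ± 0.02 or 15.4-fold. SSA3 in the deletion strain had a signal of 352 at 25 °C and 7166 at 37 °C, against a reference of 626 and 1313 on those arrays. The rise of SSA4 exceeded that of SSA3 by 3.38 on the log2 scale, and by 2.84 to 3.42 under 9 alternative ways of processing that are set out further on. Cross-hybridisation between the probes of SSA3 and SSA4 was not tested.

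SSA1 and SSA2 are the constitutive members that serve cells under normal growth. SSA1 nevertheless rose 11.7-fold in the heated wild type (log2 ratio 3.55 ± 0.01, 2 spots), from a reference signal of 5613 to 144513. On the arrays of the deletion strain its sample signal was 6621 at 25 °C and 63321 at 37 °C, with reference signals of 18807 and 19444. SSA1 ranked 69 of 5974 genes. SSA2 rose 3.33-fold in the wild type, from 24149 to 185756 on its single spot in use, a log2 ratio of 1.74. In the deletion strain the SSA2 signal was 28116 at 25 °C and 68181 at 37 °C, and the reference gave 73921 and 69694. The ratio of SSA2 lay below that of SSA1 by 1.82 on the log2 scale in the wild type, a 3.52-fold smaller rise, and the difference SSA2 minus SSA1 stayed between -1.87 and -1.36 under the alternatives. Whether the probes of such similar genes pick up each other's transcripts was not tested, since probe sequences were not used here; the unequal ratios are as measured by each probe.

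Both Hsp110 genes and FES1 rose as well. SSE1, the more used of the Hsp110 genes in growing cells, had a signal of 9195 in the reference and 90540 in the heated wild type, a log2 ratio of 2.16 ± 0.02 (2 spots) or 4.46-fold. Its stress-responsive paralogue SSE2 went from 323 to 8678 on that array, a log2 ratio of 3.84 ± 0.02 or 14.4-fold, and 3.39 to 4.51 over the alternatives. On the arrays of the deletion strain SSE1 was at 9746 in the sample at 25 °C and at 34038 at 37 °C, and SSE2 at 320 and 3714. SSE2 thus had the larger rise in both strains, by 1.69 on the log2 scale in wild-type and 1.91 in deletion cells. Cross-hybridisation between the probes of SSE1 and SSE2 was not tested. FES1 rose from 1337 to 25188 in the wild type, a log2 ratio of 3.12 ± 0.03 or 8.71-fold. In the deletion strain FES1 had a signal of 1327 at 25 °C and 7016 at 37 °C, against a reference of 3893 and 3527. That reference was nearly level between both mutant arrays, unlike the reference of SSA4.

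The Hsp70 genes that work at the ribosome went the other way. SSB1 had a reference signal of 55498 in Cy3 and 7786 in Cy5 in the heated wild type, both before normalisation. Its normalised log2 ratio was -3.96 ± 0.01 (2 spots), which is 15.5-fold lower. SSB2 went from 55823 to 8267 on the same array, at -3.88 ± 0.02. In the deletion strain SSB1 was at 35464 at 25 °C and 2539 at 37 °C, and SSB2 at 33666 and 2486, with reference signals between 102997 and 119496 in Cy5. The ratios of this pair, whose proteins are nearly identical, were 0.08 apart in wild-type and 0.11 apart in deletion cells, and cross-hybridisation between their probes was not tested. SSZ1 fell far less, to a log2 ratio of -1.10 ± 0.03 in the wild type, 2.14-fold lower, just past the size rule. Its signal was 8768 in Cy5 over a reference of 8453 in Cy3 there, and deletion cells gave 7610 at 25 °C and 3810 at 37 °C over references of 22997 and 19707. Yeast SSB genes are known for being expressed like ribosomal protein genes. Of 137 genes of cytosolic ribosomal proteins 133 fell in the wild type and 1, RPL15B, rose, with a median of -2.49, and 2 of them had ratios lower than SSB1 and 2 lower than SSB2. SSZ1 had a higher ratio than 133 of these genes.

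In the deletion strain SSA1 to SSA4, SSE1, SSE2 and FES1 rose with heat, and SSB1, SSB2 and SSZ1 fell. This response sets heated against unheated deletion cells, each over the wild-type reference on its own array, which the wild-type response uses as well; 11.5% of 5918 genes rose and 15.8% fell, and the family's median was 2.14 against 0.00 for all genes. SSA4 was at 5.94 ± 0.01 (2 spots), ranking 5 of 5918, and at 8.85 where the Cy3 channels of both deletion arrays were compared without their references, of which that of SSA4 differed between the arrays. It was followed by SSE2 at 3.87, SSA3 at 3.53, SSA1 at 3.31, FES1 at 2.33, SSE1 at 1.96, SSA2 at 1.48, SSZ1 at -1.02, SSB2 at -3.84 and SSB1 at -3.95. SSE2 stood above SSA3 by 0.34 here, but the order of this pair changed with the processing in both strains: SSE2 led in the wild type with scanner signals (4.51 and 4.25), and SSA3 led in deletion cells in the same-dye comparison (4.81 and 3.99). Taken directly over the wild type at 25 °C, the heated deletion strain gave the same calls, 7 risen and 3 fallen, where 11.5% of 5946 genes rose and 15.3% fell. There the spots of SSE2 and SSA3 overlapped, the SD of SSA3 being 0.20, and so did those of SSB1 and SSB2.

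**Figure D2:**
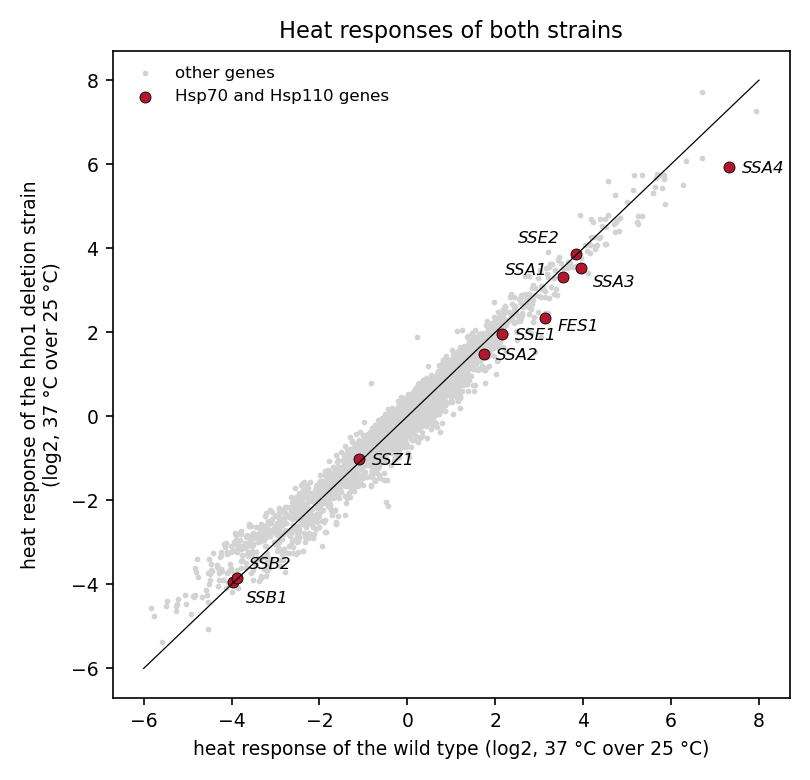
Each point is a gene, with the wild-type heat response on the horizontal axis and that of the deletion strain on the vertical axis, both as log2 of 37 °C over 25 °C and both using wild-type reference RNA; the line marks equal responses. SSB1, SSB2, SSZ1 and SSE2 lie within 0.1 of the line, and SSA4, at 7.33 and 5.94, and FES1, at 3.12 and 2.33, lie below it.

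At 25 °C none of the 10 genes passed the size rule in the deletion strain, where 0.0501% of 5984 genes rose and 0.0167% fell. Their log2 ratios to the wild type ran from -0.18 ± 0.01 for SSE2 to 0.33 ± 0.01 for SSA2, and the median was 0.01 against -0.02 for all genes. SSA4 was at 0.01, SSA3 at 0.05, SSA1 at 0.09, SSE1 at 0.00, SSZ1 at 0.01 and SSB1 at 0.01, with SSB2 at -0.07 and FES1 at -0.08. SSA2 was the 1 member whose ratio exceeded the 0.22 by which the reference varied between arrays, ranking 257 of 5984, and its ratio ran from -0.00 with median centring to 0.35 with the scanner's processed signals. When the Cy3 channel of the deletion strain was set against the Cy3 reference on the wild-type array, SSB1 was at -0.96 and SSB2 at -1.04, where the ratio within the array was near 0. SSA4 stood at -1.09 in that same-dye comparison.

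At 37 °C 1 of the 10 genes, SSA4, was lower in the deletion strain than in the wild type past the size rule, against 0.407% of 5895 genes that were lower and 0.187% that were higher. Both strains were taken over the reference at 25 °C. The SSA4 difference was -1.38 ± 0.07 (2 spots), ranking 4 of 5895 from the bottom. FES1 followed at -0.87 ± 0.09, which is below the size rule and ranked 42 from the bottom. SSA3 was at -0.36 ± 0.18, SSE1 at -0.20, SSA1 at -0.16 and SSE2 at -0.15. SSA2 at 0.08, SSZ1 at 0.08, SSB1 at 0.02 and SSB2 at -0.02 showed differences no larger than 0.1 within arrays. In the same-dye comparison described below SSB2 was at -1.17, past the size rule with 0.814% of all genes lower, and SSB1 at -0.94. The difference between both heat responses, deletion minus wild type, put SSA4 at -1.39 ± 0.06, FES1 at -0.79 ± 0.05 and SSA3 at -0.41 ± 0.08. Past the size rule it was again SSA4 alone, where 0.153% of 5872 genes had a lower and 0.375% a higher response.

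The lower SSA4 ratio in the heated deletion strain stood beside a raised reference channel on that array. On the slide that held both mutant arrays the wild-type reference in Cy5 gave SSA4 signals of 1165 and 1003 at the spots of the 25 °C array and 6947 and 6857 on the 37 °C array. After normalisation the reference of the 37 °C array was 2.91 ± 0.11 higher on the log2 scale, the largest such difference of 5872 genes. SSA3 followed at 1.27 ± 0.07, ranking 6, and the other 8 members ranged from 0.12 for SSE2 to 0.66 for SSB1. For FES1 the reference differed by 0.21 after normalisation. These values come from single channels rebuilt after brightness was equalised between arrays, and can differ from the signals. Before normalisation the SSB1 reference was 0.909 times as high on the 37 °C array, beside a median of 0.798 for all genes. For SSA4 this quotient was 6.37 and for SSA3 2.10. The counts that follow use the normalised values. Over all genes 8 were higher by 1 or more in that reference and 2 lower, and all 8 had risen in the wild-type heat response. A same-dye comparison across arrays set the heated deletion cells against the Cy3 reference of the wild-type array, and the heated wild type against the mean of both Cy5 references, the raised one included. It turned the SSA4 difference at 37 °C to 0.78 and the difference of heat responses to 1.88. With the Cy5 reference of the unheated deletion array alone, a setting chosen after seeing the data, SSA4 was at -0.68 ± 0.05 at 37 °C and at 0.42 ± 0.11 for the heat responses. SSB1 at -1.27 and SSB2 at -1.44 were then lower at 37 °C by the size rule, with the share of all genes not determined for that setting. The size and sign of the strain difference in SSA4 thus changed with the reference channels used, and the cause of the raised reference signal was not tested. FES1 kept its sign in that comparison, at -0.51 at 37 °C and -0.45 for the heat responses, and was between -1.66 and -0.45 in every alternative of both comparisons.

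**Figure D3:**
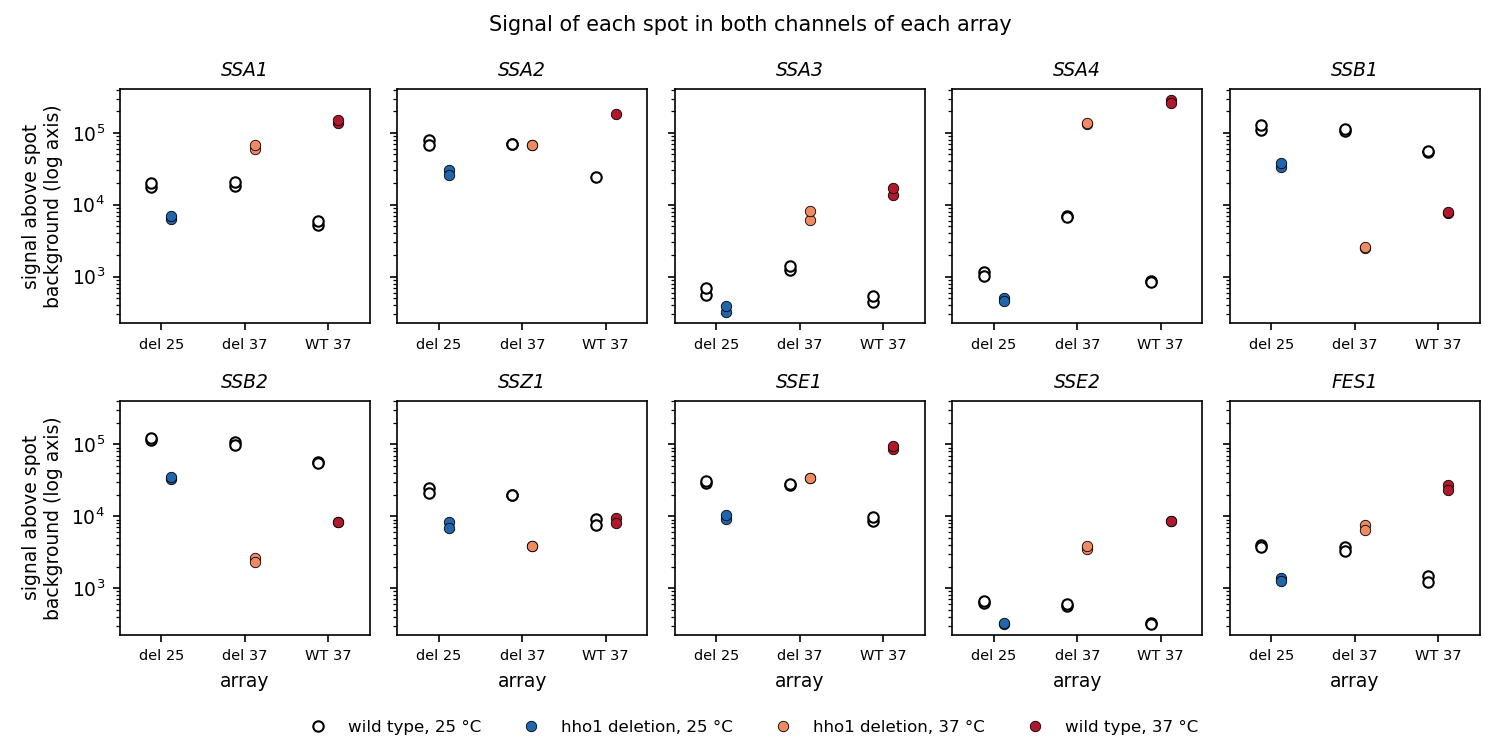
Signal above spot background on a log axis for each spot without a flag, by array (del 25, del 37 and WT 37 are the arrays of unheated deletion, heated deletion and heated wild-type cells); open circles are the wild-type reference at 25 °C and filled circles the sample. The SSA4 reference is at 6902 on the array of the heated deletion strain and at 1084 and 864 on the others, while the FES1 and SSE2 references of both mutant arrays are nearly level.

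**Figure D4:**
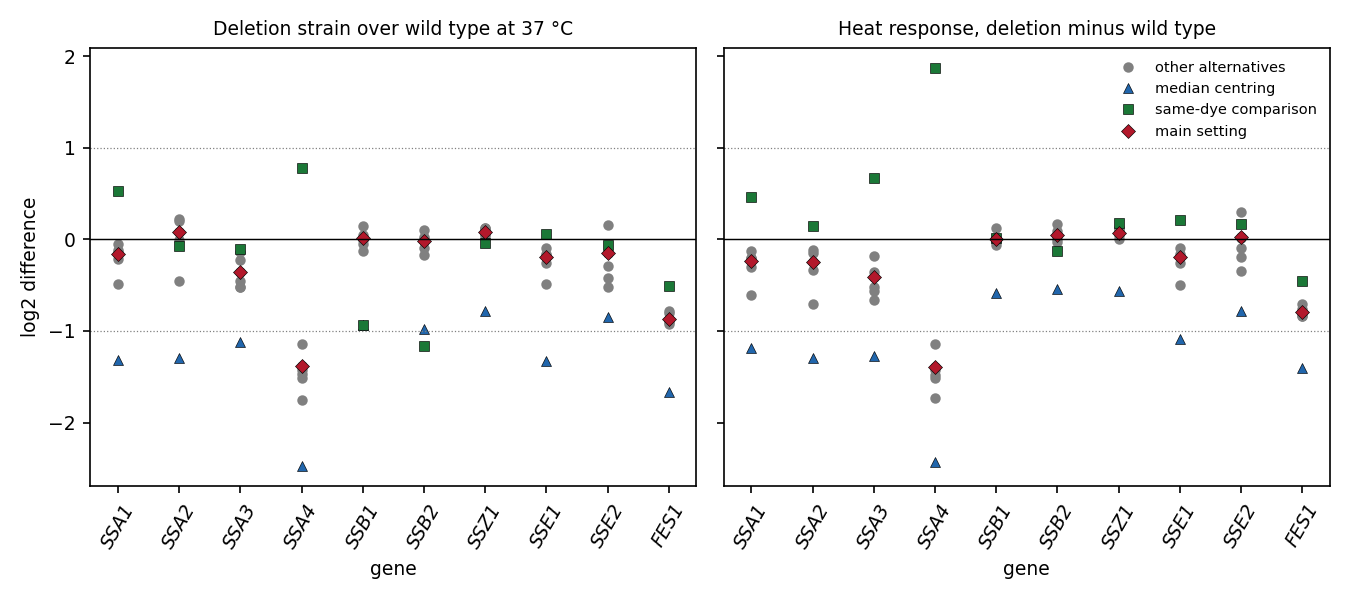
Log2 difference of each gene between the strains at 37 °C (left) and between their heat responses (right), in the main setting and under 9 alternatives; dotted lines mark 1 and -1. SSA4 moves from -1.38 and -1.39 to 0.78 and 1.88 in the same-dye comparison, FES1 stays below 0 throughout, and median centring puts every member below 0.

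Scaling also entered the comparison at 37 °C. Centring each array on its median in place of loess left 6 of the 10 genes lower by the size rule at 37 °C, where 10.3% of all genes were lower, and the same number in the difference of heat responses, where 4.6% were. The median of all genes then stood at -0.37 and -0.34. The loess curve had shifted these genes by -1.85 to -1.11 on the array of the heated deletion strain, beside a median shift of -1.05 for all gene spots. On the wild-type array the shifts of the members, 1.12 to 1.28, were close to the median of 1.09.

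Other genes of the Hsp70 cycle differed in their heat response in the wild type, where 11.6% of all genes rose and 16.4% fell. Of 14 partners of cytosolic Hsp70, most of them J-domain proteins, 5 rose and 1 fell, with a median of 0.57. The disaggregase gene HSP104, whose product works with Hsp70 on aggregates, was at 5.79 on 1 spot, and STI1, which links Hsp70 to Hsp90, at 3.88. The J-domain gene SIS1 was at 3.82 on 1 spot and APJ1 at 2.81, and YDJ1, the main J-domain partner of the Ssa proteins, at 1.73. JJJ1, a J-domain protein of ribosome maturation, fell to -1.12. In the deletion strain 4 of 13 measured partners rose and 2 fell, beside 11.5% and 15.8% of all genes. The difference of heat responses was -0.82 for APJ1, -0.37 for STI1 and 0.11 for YDJ1, and no partner passed the size rule in it.

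Genes of the Hsp70 machines of the organelles differed as well, with a median of 0.55. Of 7 such genes KAR2, the Hsp70 of the endoplasmic reticulum, rose to 3.14 on 1 spot and SSC1, the main mitochondrial Hsp70, to 1.83. The mitochondrial exchange factor gene MGE1 fell to -1.37, where 11.6% of all genes rose and 16.4% fell. LHS1 was at 0.32, SIL1 at 0.60, SSQ1 at 0.55 (1 spot) and ECM10 at 0.27 (1 spot). None passed the rule between the strains at 37 °C, where MGE1 was at 0.35. Among the 4 partners at the nascent chain ZUO1, which forms the ribosome-associated complex with Ssz1, fell to -1.11 on 1 spot, close to the -1.10 of SSZ1. In the deletion-strain heat response ZUO1 was at -1.17 and SSZ1 at -1.02. Taken over the wild type at 25 °C, the heated deletion strain had ZUO1 at -1.48 and SSZ1 at -1.01. The genes of the nascent polypeptide-associated complex, EGD1 at -0.78, EGD2 at -0.70 and BTT1 at 0.13, did not pass the rule. Of 5 regulators none passed it in the wild type: HSF1 was at 0.74, MSN4 at 0.91 (1 spot), MSN2 at 0.28, YAP1 at 0.06 (1 spot) and SKN7 at -0.72. In the deletion strain MSN4 was at 1.20 on 1 spot and passed the rule, and HSF1 was at 0.61.

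**Figure D5:**
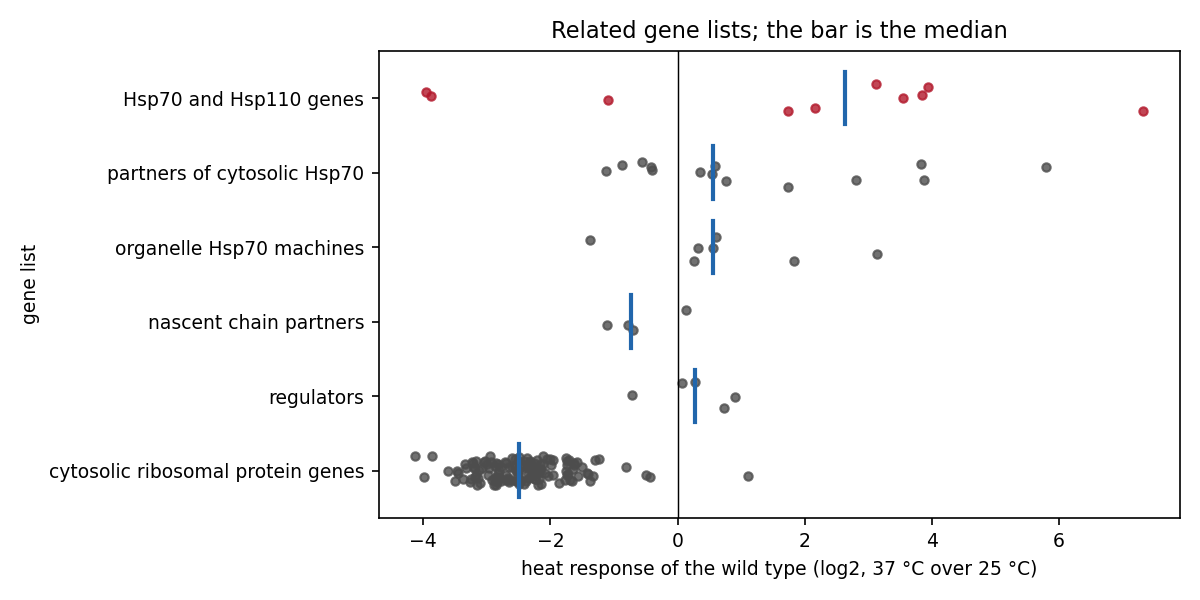
Heat response of the wild type (log2, 37 °C over 25 °C) for each gene of 6 lists, with the list median as a bar. The Hsp70 and Hsp110 genes spread from SSB1 at -3.96 to SSA4 at 7.33, and the ribosomal protein genes gather around their median of -2.49.

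The genes closest to 4 of the members over the ratios of the 3 arrays were looked up among 5511 genes well above background in every channel, by Euclidean distance on the log2 scale. Closest to SSA4 were TMA10 at a distance of 0.65, the aldehyde dehydrogenase gene ALD3 at 0.99 and the small heat shock protein gene HSP26 at 1.16, whereas its nearest family member, SSA3, was 4.13 away. These distances depend on the reference of the heated deletion array, which was raised for SSA4, SSA3 and HSP26. On that array SSA4 entered at 5.95, a ratio that was 7.76 in the same-dye comparison. SSA1 lay 0.19 from CYC7, a cytochrome c isoform, 0.26 from YGP1 and 0.27 from the trehalose phosphatase gene TPS2, all closer than SSA3 at 0.44. The nearest to SSB1 was its own paralogue SSB2 at 0.12, and outside the family the ribosome assembly gene NOG2 at 0.15, LIA1 at 0.21 and the ribosomal protein gene RPL27B at 0.21. For SSE1 they were PRM5 at 0.13, YMR181C at 0.14 and VVS1 at 0.15.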

How the data were processed

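RNA of 3 samples was measured on 3 Agilent 2-colour arrays of 10263 gene and 526 control spots, with 1 probe per gene. Per the file headers, the deposited spot intensity values came from Agilent Feature Extraction 9.1.1.1, as mean pixel brightness with the median brightness around the spot; its processed intensity was background-subtracted and dye-normalised. The log10 ratio in the deposited files is red over green of those processed signals. A value table deposited by the authors gives log2 ratios, whose direction was set against the scanner's ratios (r of 0.47, 0.96 and 0.96 for the deletion strain at 25 °C and 37 °C and the wild type); column medians were -0.013, -0.050 and -0.020, and its centring and steps stay unknown, though the submitters' processing notes name limma.

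Intensities were corrected with normexp (offset 50) and normalised within arrays with loess in R 4.3.3 and limma 3.58.1, with control and flagged spots at weight 0. Ratios were oriented as sample over unheated wild type. For same-dye comparisons and reference differences, single channels were rebuilt after an Aquantile step, which equalises the distribution of mean log2 brightness between arrays. Spots entered if well above background in 1 or both channels on every array of the comparison, and spots of a gene were averaged. This offset shrinks the ratios of dim spots. Ratios are relative to each array, and having 1 array per group limits their precision. Well above background were 94.3% to 95.1% of gene spots in the Cy5 channel, and 90.0% to 90.2% in Cy3. The calculation was checked on simulated arrays in which a small set of bright genes changed, in equal numbers up and down. With heat 11.6% of genes rose and 16.4% fell in the wild type, a setting that this check does not cover.

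The 6 comparisons used the size rule and no test. Background correction, offset, centring, signals, dye, filters and choice of spot were varied. Members and lists were chosen with earlier results of these data known. Named genes are all members, HHO1 and up to 4 genes per list by the size of the wild-type ratio (all genes of lists of up to 8). The 3 genes nearest to each of 4 members are named too. YDJ1, JJJ1, RPL15B and the genes named for the reference channel were added after their values were seen. Names came from the R64 gene table through systematic names, which matched 5756 of 6256 genes. No source used here gives the probes' genome build, and coordinates are left out; probe, promoter and protein sequences were not analysed here.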

Additional observations from a re-analysis of the deposited data

How the results depend on the processing

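Of 540 member values under the 9 alternatives, 278 of those past the size rule stayed past it in the same direction, 9 no longer passed and 1 passed in the opposite direction; 13 below the rule passed it and 239 stayed below. Neither change of the filter on dim spots could move a member, since every member channel was well above background. Their values repeat the main setting and add no check to these counts. In the same-dye comparison 2 members, SSB2 and SSA4, were lower in the deletion strain at 25 °C, where 0.284% of all genes were. The ratios within arrays gave 0 members there. The SSA4 difference at 37 °C turned to 0.78, and SSB2 passed the rule there at -1.17, with 0.814% of all genes lower. The difference of heat responses had SSA4 at 1.88, giving 1 member higher and 0 lower, beside 0.886% and 0.17% of all genes. With 1 Cy5 reference in place of the mean of both, chosen after seeing the data, 2 members (SSB1 and SSB2) were lower at 37 °C. In the difference of heat responses 0 passed, with SSA4 at 0.42. The share of all genes past the rule was not determined for that setting. Median centring gave 6 members lower at 37 °C and 6 in the difference of heat responses; of all genes past the rule in the latter, 15.6% were higher, against 71.0% in the main setting, 7.89% with scanner signals, 8.70% by the deposited table and 83.9% by same-dye channels. At 37 °C that share was 31.4%, against 49.4% with median centring, 7.86% with scanner signals, 62.5% without background correction, 43.8% with offset 0, 42.5% with the brightest spot and 70.9% by same-dye channels. It was 52.5% with scanner signals against 41.4% for the wild-type heat response, and 31.9% with median centring against 42.2% for the deletion strain. At 25 °C 559 genes were higher and 6 lower with median centring, and 25 and 76 with scanner signals, against 3 and 1. At 37 °C 590 and 605 were higher and lower with median centring, and 29 and 340 with scanner signals, against 11 and 24; in the difference of heat responses these were 50 and 270, and 22 and 257, against 22 and 9. The cause of these changes was not tested. The counts of 7 risen and 3 fallen members in the heat responses moved by no more than 1 member under the 9 alternatives, SSZ1 or SSA2. No paired analysis was possible because groups held 1 array apiece, and no replicate could be left out. Signal over background limits SSA3 and SSE2, whose Cy3 signals at 25 °C were 320 to 494 beside 157 to 162 for negative controls. It also limits SSA4, at 485 in Cy3 in the deletion strain at 25 °C. That SSA4 signal enters its same-dye values of -1.09 at 25 °C, 8.85 for the deletion-strain heat response and 1.88 for the difference of responses. The wild-type heat ratio of SSE2 ran from 3.39 to 4.51 over the settings.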

Other observations

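Besides SSA4 and SSA3, 6 genes had a normalised wild-type reference at least 1 higher (log2) on the heated deletion array than on the unheated one. They are named here after their values were seen. The transcriptional repressor gene XBP1 was 2.18 higher, the trehalose synthase subunit gene TSL1 1.80, HSP26 1.49, FMP45 1.45, DDR2 1.19 and PIN3 1.14. All had risen with heat in the wild type, from 1.27 for XBP1 to 7.94 for HSP26. Lower by at least 1 were SAP1 at -2.04 and COS12 at -1.45, whose wild-type heat responses were 0.22 and -0.84. HSP26 had reference signals of 1149 and 2711 on these arrays and 532 in Cy3 on the wild-type array.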
